A study of Mus musculus with 11 samples.

Results

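The clustered replication-dependent histone genes encode the linker histone H1 and the core histones H2A, H2B, H3 and H4. They were taken as the protein-coding genes whose GENCODE M21 symbol begins with Hist1h, Hist2h, Hist3h or Hist4h. This rule was met by 67 of the 55471 genes counted, and 3 further genes with such a symbol were left out because they are not annotated as protein-coding. The members were 6 H1, 18 H2A, 18 H2B, 12 H3 and 13 H4 genes.

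RNA was sequenced from CD4+ cells that C57BL/6 mice carry in the lymph nodes draining groin and armpit (inguinal and axillary). The CD4+ cells were enriched by bead removal of other cells and kept for 2 h in 1.25 µg/ml of the T cell-activating lectin concanavalin A. The GLC group, 6 libraries numbered 6, 78, 9, 10, 11 and 12, had the genotype Pggt1bfl/flLys-Cre, a conditional deletion of Pggt1b in macrophages. The WT group, 5 libraries numbered 1 to 5, was wild type and received the same stimulation. Pggt1b encodes a subunit of a protein prenyltransferase, and Lys-Cre is driven in myeloid cells, so the sequenced CD4+ cells are not the cells in which the deletion is labelled. GLC 78 held pooled RNA of 2 mice. No age was stated, nor whether each other library is a separate mouse. P-values therefore measure the spread between these samples.

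Replication-dependent histone genes supply the histones that package newly copied DNA, and dividing cells express them mainly in S phase. Most lack introns, and their messenger RNA normally ends just after a short stem-loop instead of in a poly(A) tail. The stem-loop is bound by the protein SLBP, and transcription of the clusters depends on NPAT. Some of these genes also give longer, polyadenylated transcripts, chiefly in cells that have stopped dividing. Freshly isolated lymph node T cells are mostly outside the cell cycle.

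The stem-loop is the feature that the transcripts share, so 1 example of each of the 8 forms found in the members' annotated 3′ untranslated regions (UTRs) is shown. Sequences are 5′ to 3′ from the GENCODE M21 transcripts (GRCm38), with the 16-base stem-loop in capitals and 5 bases on each side in lower case.
Hist1h1c (chr13:23739507-23739532, plus strand): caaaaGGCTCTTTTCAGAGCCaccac
Hist1h3e (chr13:23561898-23561923, minus strand): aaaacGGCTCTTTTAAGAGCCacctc
Hist2h2ac (chr3:96220413-96220438, minus strand): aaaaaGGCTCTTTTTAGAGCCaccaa
Hist1h3g (chr13:23535884-23535909, plus strand): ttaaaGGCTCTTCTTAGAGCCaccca
Hist1h4d (chr13:23581945-23581970, plus strand): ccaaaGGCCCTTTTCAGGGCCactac
Hist2h4 (chr3:96262934-96262959, minus strand): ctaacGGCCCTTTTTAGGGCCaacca
Hist1h4j (chr13:21735432-21735457, plus strand): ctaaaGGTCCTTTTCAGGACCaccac
Hist1h4a (chr13:23760795-23760820, minus strand): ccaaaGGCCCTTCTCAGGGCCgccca

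A match was found in 46 of the 52 members with an annotated 3′ UTR of at least 16 bases, or 88.5%. Among 20893 other protein-coding genes 16 had such a match, or 0.0766%, and these included the histone variant gene H2afx. The form of Hist1h1c was present in 26 members, and that of Hist1h4d in 7. That of Hist1h3e was present in 6, those of Hist2h4 and Hist1h4j in 2 each, and the remaining 3 forms in 1 each. The families divided by the first 5 bases of the stem. All 34 H1, H2A, H2B and H3 members with a match began with GGCTC, whereas 10 of the 12 H4 members began with GGCCC and the other 2 with GGTCC. The stem-loop began between 21 and 58 bases after the stop codon, with a median of 31.

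Promoters differed by family, as the motifs below show. The promoters of the H1, H2A and H4 members with the most reads among those in the promoter table are shown, each 250 bases before to 50 bases after the gene's start (RefSeq, GRCm38.p6). Capitals mark, on either strand, the TATA box letters TATAAA, the box of the letters CCAAT, the octamer ATTTGCAT bound by Oct-1, and GGTCC, the core of a site described in H4 promoters.
Hist1h1c (chr13:23738557-23738856, plus strand): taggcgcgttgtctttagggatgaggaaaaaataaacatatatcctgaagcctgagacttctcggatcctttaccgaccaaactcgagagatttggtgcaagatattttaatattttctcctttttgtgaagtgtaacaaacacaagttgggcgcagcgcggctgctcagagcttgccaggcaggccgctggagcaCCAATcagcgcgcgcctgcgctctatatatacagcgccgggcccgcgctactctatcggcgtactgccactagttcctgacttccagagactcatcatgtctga
Hist3h2a (chr11:58954435-58954734, plus strand): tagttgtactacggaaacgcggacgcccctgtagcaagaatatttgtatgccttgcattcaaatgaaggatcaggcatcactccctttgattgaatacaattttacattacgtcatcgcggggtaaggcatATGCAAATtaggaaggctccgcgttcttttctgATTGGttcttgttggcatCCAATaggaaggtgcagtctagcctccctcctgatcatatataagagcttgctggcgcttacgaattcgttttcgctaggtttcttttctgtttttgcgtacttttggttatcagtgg
Hist1h4i (chr13:22041313-22041612, minus strand): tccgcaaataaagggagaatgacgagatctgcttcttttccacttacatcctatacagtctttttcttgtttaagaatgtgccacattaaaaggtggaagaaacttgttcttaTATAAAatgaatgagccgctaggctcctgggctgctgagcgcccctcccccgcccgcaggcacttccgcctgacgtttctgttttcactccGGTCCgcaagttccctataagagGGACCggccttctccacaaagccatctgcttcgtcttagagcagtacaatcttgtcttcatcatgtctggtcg

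The Hist1h1c window held 1 CCAAT. The Hist3h2a window held 2 CCAAT motifs on opposite strands and 1 copy of ATTTGCAT. The Hist1h4i window held 1 TATAAA and 2 copies of GGTCC, also on opposite strands. The promoter table matched 61 members with 62 windows. A motif was counted on both strands, and an overlap with another motif was ignored. Its distance from the gene's start was not considered, so a match to TATAAA need not be a TATA box. TATAAA was in 35 of the 62 windows, or 56.5%, against 13.6% of all 32851 promoter windows in the table. CCAAT was in 85.5% of the members' windows and in 37.4% of all windows. Every H1, H2A, H2B and H3 window had it, but only 3 of 12 H4 windows did. ATTTGCAT was in 14 member windows, or 22.6%, against 1.74% of all windows. These 14 were 7 of 17 H2A and 7 of 17 H2B windows. GGTCC was in 43.5% of member windows and 45.5% of all windows, and among the H4 members in 11 of 12. In 9 pairs, members on opposite strands had promoter windows that overlapped by 220 to 279 bases, and all 9 paired an H2A with an H2B gene. A motif in such an overlap was counted in both windows, as was the octamer of Hist1h2aa and Hist1h2ba. The 6 members without a window, among them Hist1h2bc, Hist2h2be and Hist1h2ap, could not be searched for pairs.

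The deposited values are counts of reads per gene. Library totals ranged from 11308285 to 14620148 counts. The CD4 T cell marker genes summed to between 3973 and 4427 CPM (counts scaled to library size) in GLC and between 4079 and 4643 CPM in WT. B cell markers summed to at most 19.2 CPM in GLC and 17.7 CPM in WT. The natural killer cell list summed to 22.6 to 38.6 CPM in GLC and 15.5 to 31.6 CPM in WT. Of the 6 neutrophil and the 6 red cell markers, 4 in each list had 0 counts in all libraries. Reads of Y-linked genes were found in GLC 9 (633 counts) and reached at most 1 count in the other libraries. Xist, expressed from the inactive X chromosome, had 11 counts in GLC 9 and between 2992 and 5943 counts in the others. Sex is not stated in the sources, so GLC 9 may differ in sex, and results are also given without GLC 9 and GLC 78. Gm42418, annotated over ribosomal RNA sequence, took 10.0% of counts in WT 1 and between 5.99% and 7.82% in the others. The part of these differences in the histone values was not tested.

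Reads of the clustered histone genes were few and were concentrated in few members. All 67 members together had 9773 counts in the 11 libraries. The linker histone gene Hist1h1c held 4456 of these, or 45.6%. The next 3 members were the H2B genes Hist2h2be with 813 and Hist1h2bc with 695 counts, and the H2A gene Hist3h2a with 661 counts. These 4 members made up 67.8% of the sum, and the first 10 made up 83.1%. At the other end, 9 members had 0 counts, 17 had 1 to 10 counts and 29 had 11 to 100 counts, and 24 members were read in every library. In a bulk sample, fewer expressing cells and less RNA per cell cannot be told apart.

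The summed level of the members overlapped between the groups. It was 74.96 CPM in GLC 6, 71.5 in GLC 78, 52.3 in GLC 9, 52.5 in GLC 10, 91.0 in GLC 11 and 60.9 in GLC 12. It was 89.8, 63.1, 74.3, 69.5 and 59.0 CPM in WT 1 to WT 5. GLC 11 and WT 1 were the highest libraries and GLC 9 and GLC 10 the lowest. The mean was 67.2 ± 15.0 CPM in GLC (SD, n = 6) and 71.1 ± 11.98 CPM in WT (SD, n = 5), a log2 ratio of -0.08, or -0.03 without GLC 9 and GLC 78. As a share of all counts, the members made up 0.00539% in GLC 9 (95% Wilson interval 0.00497% to 0.00583%) and 0.00879% in GLC 11 (0.00827% to 0.00934%), the lowest and highest libraries. These intervals cover counting error only, and the spread within GLC exceeded it.

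By family, H1 was the most read, chiefly through Hist1h1c. H1 genes averaged 35.4 ± 10.2 CPM in GLC and 38.1 ± 6.90 CPM in WT (SD, n = 6 and 5), and held 53.1% of the members' counts. H2B genes averaged 15.1 ± 2.89 CPM in GLC and 15.97 ± 2.06 CPM in WT. H4 genes averaged 7.92 ± 2.11 CPM in GLC and 8.29 ± 2.08 CPM in WT. H2A genes averaged 6.18 ± 0.902 CPM in GLC and 6.28 ± 1.22 CPM in WT. H3 genes were the least read, at 2.62 ± 0.824 CPM in GLC and 2.49 ± 1.05 CPM in WT. In each of the 5 families the difference between the group means was smaller than the SD within either group. The log2 ratios lay between -0.11 for H1 and 0.07 for H3. The H1 ratio was 0.34 without Hist1h1c, and the H3 ratio ran from -0.135 to 0.283 with each library left out in turn. Without Hist1h1c, the remaining 66 members summed to 37.5 ± 6.58 CPM in GLC and 37.6 ± 6.18 CPM in WT.

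**Figure D1:**
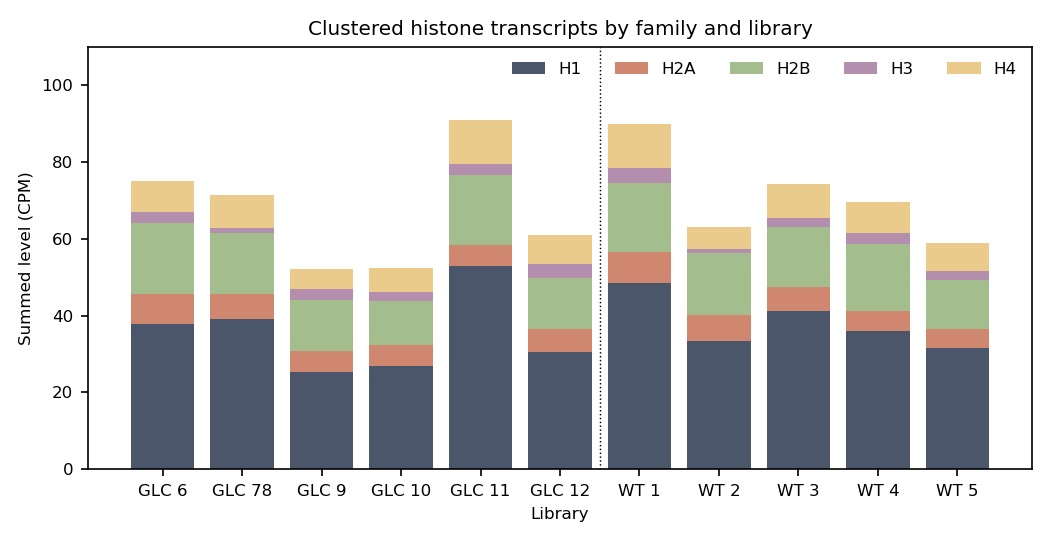
Stacked bars give the summed CPM of the clustered histone genes in each library, divided by family, with GLC libraries left of WT libraries. GLC 11 (91.0 CPM) and WT 1 (89.8 CPM) stand highest, and H1 is the tallest segment in every bar.

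The reads fell mainly in the larger of the chromosome 13 clusters, chiefly through Hist1h1c. The 31 members between 23531050 and 23934851 on chromosome 13 (GRCm38) held 6925 counts, or 70.9%. Hist1h1c alone held 4456 of these counts. The 23 members between 21715763 and 22043676 on the same chromosome held 612 counts, or 6.26%, with 1 of them tested. The 10 members on chromosome 3, between 96219865 and 96270132, held 12.9%. Hist3h2a and Hist3h2ba, the pair of members on chromosome 11, held 8.91%, and Hist4h4 on chromosome 6 held 1.04%. Levels varied within each cluster, and members with 0 counts lay in both chromosome 13 clusters (4 and 2 members) and on chromosome 3 (3 members).

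All 11 members with enough reads to be tested have an annotated 3′ UTR that extends well beyond the stem-loop or contains no stem-loop match. These groups were formed after the counts had been seen and carry no test. In 23 members the annotated UTR runs at least 100 bases past the stem-loop. They held 76.1% of the counts, with a median of 88 counts per member. Another 6 members, among them Hist2h2be and Hist1h2bc, have an annotated UTR with no match. They held 16.7%, with a median of 63 counts. In 23 members the annotated UTR ends less than 100 bases past the stem-loop, and they held 3.64%, with a median of 8 counts. The last 15 members have less than 16 bases of annotated UTR and held 3.49%, with a median of 12 counts.

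The order of the UTR groups depended on the length used. Per kb of exon, which includes the annotated UTR, the median level was 0.389 CPM per kb for members running past the stem-loop and 0.675 CPM per kb for those with no match. It was 0.0902 CPM per kb for members ending near the stem-loop and 0.208 CPM per kb for those with less than 16 bases of UTR. Per kb of coding length, the median level was 1.56 CPM per kb for members running past the stem-loop and 0.790 CPM per kb for those with no match. It was 0.137 CPM per kb for members ending near the stem-loop and 0.210 CPM per kb for those with less than 16 bases. The polyadenylation signal AATAAA was in the annotated UTR of 19 members. Whether RNA was selected by poly(A) tail or by removal of ribosomal RNA is not stated in the sources, and its part in these levels was not tested. Between genotypes, members ending near the stem-loop summed to 2.60 ± 0.962 CPM in GLC and 2.37 ± 1.04 CPM in WT (SD, n = 6 and 5). Those running past it summed to 51.1 ± 12.1 CPM in GLC and 54.4 ± 10.5 CPM in WT. Neither difference exceeded the spread within a group.

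**Figure D2:**
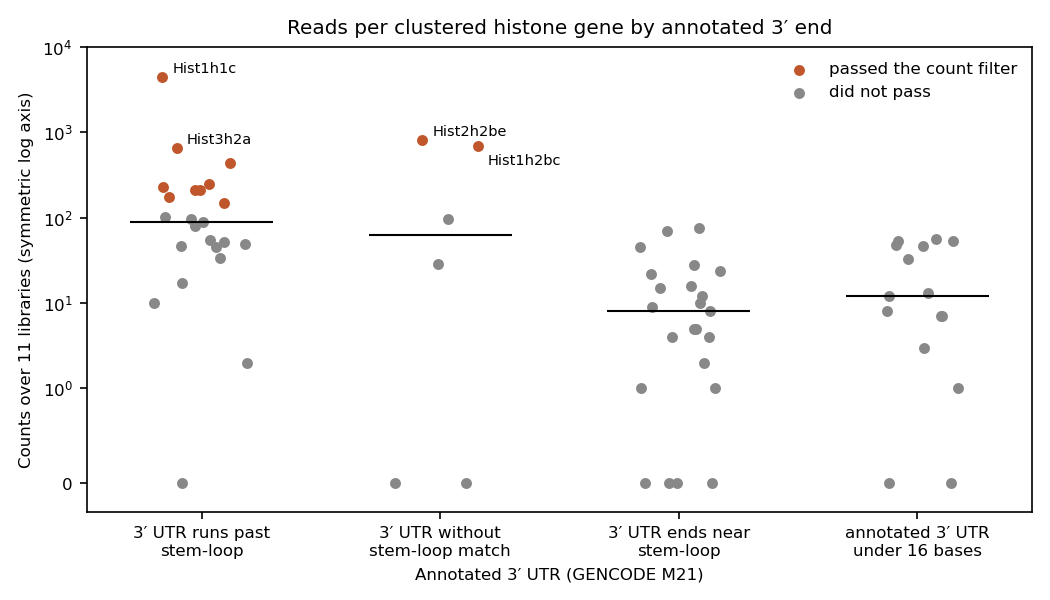
Each point is 1 clustered histone gene, placed by the annotated form of its 3′ end, with its counts over the 11 libraries on a symmetric log axis. Medians are 88 counts for UTRs running past the stem-loop, 63 with no match, 8 for UTRs ending near it and 12 for UTRs under 16 bases.

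Many members share sequence with other annotated genes, through similar sequence elsewhere or through overlapping annotation. Exons of 24 members, 3 of them tested, overlap those of another annotated gene. Each member's transcripts were cut into 50-base stretches, and the share found in transcripts of another gene was taken. The 17 members sharing at most 25% of their stretches held 69.5% of the counts, and the 16 members sharing over 25% and up to 50% held 24.1%. The 13 members sharing over 50% and up to 75% held 4.00%, and the 21 sharing more held 2.41%. The median levels of the 4 groups, in the same order, were 1.56, 0.695, 0.294 and 0.0538 CPM per kb of coding length. Per kb of exon they were 0.445, 0.352, 0.242 and 0.0526 CPM. The stretches include the annotated UTR, as exon length does, whereas coding length leaves it out. How far this shapes the order was not tested. Of the 9 members with 0 counts, 7 shared over 85% of their stretches, among them Hist1h2ao, Hist1h2bq and Hist2h2aa1. Of all 67 members, 18 shared over 85%, and some of these had reads. Hist2h2bb and Hist2h3b, each with 100% shared, had 54 and 29 counts. How multiply mapping reads were handled is not stated in the sources, so values of such members are uncertain.

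Sharing also differed between the UTR groups. Members running past the stem-loop shared a median of 24.6% of stretches and those with under 16 bases of UTR 85.8%. Members with no match shared 59.7% and those ending near the stem-loop 60.4%, although their median counts were 63 and 8. The part of sharing and of the 3′ end in the levels was not tested. The other 2 members with 0 counts were Hist1h2aa and Hist1h2ba, which encode testis variants of H2A and H2B and shared 23.8% and 38.2% of stretches. With 0 counts over all libraries, a level of up to 0.0211 CPM is allowed (3 counts in the summed libraries). The testis linker histone gene Hist1h1t had 2 counts, both in WT 3.

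**Figure D3:**
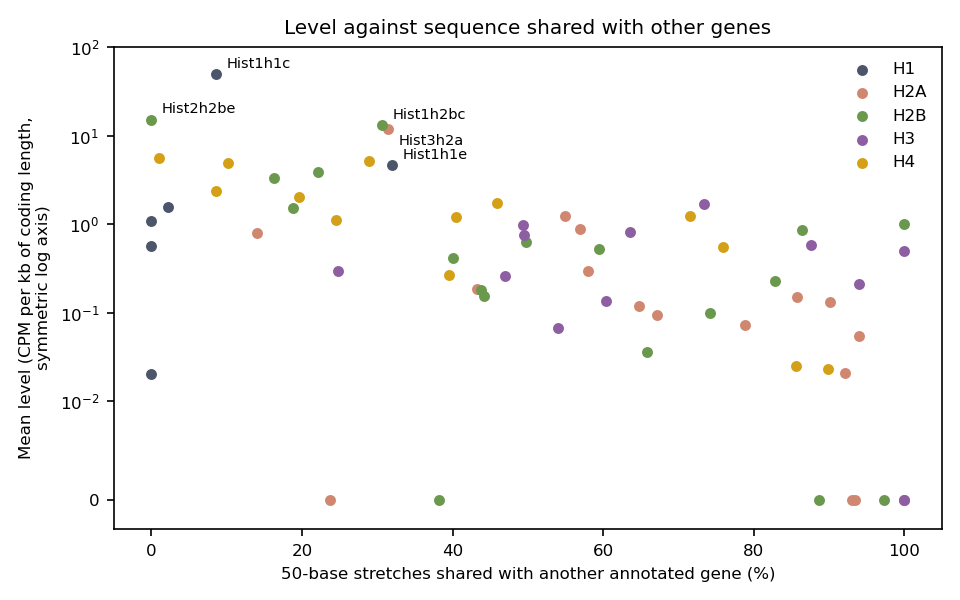
Points are the clustered histone genes, with the percentage of 50-base stretches shared with another annotated gene on the x axis and the mean level in CPM per kb of coding length on a symmetric log y axis. Hist1h1c, with 8.54% shared, lies highest, and 7 of the 9 members with 0 counts share over 85%, as do 18 of all 67 members.

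Whether the members differed between GLC and WT CD4+ cells was tested gene by gene. Only 11 members had enough counts to be tested, and they held 84.7% of the members' counts. With edgeR's quasi-likelihood test and Benjamini-Hochberg adjustment over 12404 genes, 0 of the 11 members were called at an adjusted p under 0.05, where 0% of all genes tested were called. At an unadjusted p under 0.05, 0 of 11 members passed, against 4.54% of all genes. In 0 of the 11 did the GLC and WT libraries lie apart, against 0.331% of all genes. The log2 fold change of GLC over WT was above 0 in 5 members and below 0 in 6, against 49.9% above 0 over all genes. The median was -0.01 over the members and -0.000160 over all genes tested. The adjusted p was 0.9997 for each of the 11 members and is not repeated at each of them. Without GLC 9 and GLC 78, 0 members were called.

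Among linker histones, Hist1h1c (ENSMUSG00000036181, chr13:23738808-23740367, plus strand) had the highest level per length, 20.1 CPM per kb of exon. Its levels were 31.2 CPM in GLC 6, 32.3 in GLC 78, 21.5 in GLC 9, 23.0 in GLC 10, 45.5 in GLC 11 and 24.4 in GLC 12. They were 42.0, 30.4, 36.9, 32.2 and 26.3 CPM in WT 1 to WT 5. GLC 11 was the highest library and the other 5 GLC libraries lay below the WT mean, inside or under the WT range. The means were 29.6 ± 8.93 CPM in GLC and 33.6 ± 6.06 CPM in WT (SD), and the log2 fold change was -0.18 (SE 0.18). The 95% interval ran from -0.56 to 0.20, that is from 0.679-fold to 1.15-fold.

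Hist1h1e, another somatic H1 gene (ENSMUSG00000051627, chr13:23620629-23622558, minus strand), had the smallest p among members above 0. It lay between 2.11 and 4.36 CPM in GLC with a median of 3.57 CPM, against 4.07, 1.43, 2.34, 2.13 and 3.13 CPM in WT 1 to WT 5. It exceeded the WT mean in 5 of 6 GLC libraries, while WT 1 lay among the higher GLC libraries, so the groups overlapped. The means were 3.44 ± 0.877 CPM in GLC and 2.62 ± 1.01 CPM in WT, with a log2 fold change of 0.39 (SE 0.28). The 95% interval ran from -0.20 to 0.99. Exons annotated to Hist1h1e overlap those of Hist1h2be and Gm11398 on the same strand, so reads of the 3 genes may not be fully told apart.

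Hist1h1d, the third H1 gene tested, lay between 0.429 and 2.00 CPM in GLC with a median of 1.115 CPM. Its WT levels were 1.17, 0.502, 1.06, 1.03 and 1.09 CPM. GLC 78 was the highest library and GLC 9 the lowest, with WT between them. The log2 fold change was 0.17 (SE 0.38), and without GLC 78 it was -0.09. Hist1h1b, an H1 gene that did not have enough counts for the test, had 15, 5, 3, 4, 3 and 12 counts in the GLC libraries in the order given above, and 2, 0, 4, 1 and 4 counts in WT 1 to WT 5. GLC 6 and GLC 12 carried most of the 42 GLC counts, against 11 counts in WT. In counts, GLC 9, GLC 10 and GLC 11 lay inside the WT range. In CPM, GLC 10 lay above the highest WT library, WT 3, at 0.337 against 0.283 CPM.

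Among H2B genes, Hist2h2be (ENSMUSG00000068854, chr3:96221119-96223738, plus strand) lay between 3.77 and 6.60 CPM in GLC with a median of 5.23 CPM. It was at 4.30, 6.38, 7.29, 8.04 and 5.24 CPM in WT 1 to WT 5. The 2 highest libraries were WT 3 and WT 4, and WT 1 was below the GLC median. The log2 fold change was -0.25 (SE 0.20), with an interval of -0.67 to 0.17. Hist1h2bc (ENSMUSG00000018102, chr13:23684199-23692908, plus strand) lay between 3.29 and 6.88 CPM in GLC with a median of 4.24 CPM, against 7.51, 5.60, 4.17, 5.52 and 2.65 CPM in WT. Both the highest and the lowest library were WT, and the log2 fold change was -0.08 (SE 0.27).

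The other H2B genes tested were Hist3h2ba and Hist1h2be. Hist3h2ba averaged 1.48 ± 0.348 CPM in GLC and 1.47 ± 0.403 CPM in WT, with a log2 fold change of 0.01 (SE 0.27). Hist1h2be averaged 1.32 ± 0.496 CPM in GLC and 1.15 ± 0.346 CPM in WT, with a log2 fold change of 0.19 (SE 0.32). In both genes the WT mean was exceeded in 3 of 6 GLC libraries.

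Hist3h2a (ENSMUSG00000078851, chr11:58954685-58956830, plus strand) was the 1 H2A gene tested. It lay between 3.83 and 5.85 CPM in GLC with a median of 4.54 CPM, against 6.10, 5.95, 4.17, 4.02 and 3.61 CPM in WT. WT 1 and WT 2 were the highest libraries and WT 5 the lowest, so all GLC libraries lay inside the WT range. The log2 fold change was -0.06 (SE 0.19), with an interval of -0.47 to 0.34. Its exons overlap those of Trim17 on the same strand. The next H2A genes, not tested, were Hist2h2ac at 0.455 ± 0.242 CPM in GLC and 0.508 ± 0.389 CPM in WT, and Hist1h2ak at 0.334 ± 0.159 CPM in GLC and 0.348 ± 0.284 CPM in WT.

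Of the H4 genes, which all encode the same core histone, 3 were tested. Hist2h4 (chr3:96261682-96263311, minus strand) lay between 0.759 and 2.26 CPM in GLC with a median of 1.75 CPM, against 2.11, 1.43, 1.84, 2.60 and 1.497 CPM in WT. GLC 9 and GLC 10 lay under every WT library, and the other 4 lay inside the WT range. The log2 fold change was -0.26 (SE 0.31). Hist1h4i averaged 1.61 ± 0.389 CPM in GLC and 1.62 ± 0.546 CPM in WT, and Hist1h4d averaged 1.53 ± 0.827 CPM in GLC and 1.47 ± 0.891 CPM in WT. Their log2 fold changes were -0.01 (SE 0.28) and 0.06 (SE 0.42). Hist1h4d was highest in GLC 11, at 3.05 CPM, and in WT 1, at 2.97 CPM, the same libraries that led the summed level.

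No H3 gene had enough counts for the test. The most read was Hist1h3e, with 4, 6, 11, 4, 9 and 19 counts in the GLC libraries and 17, 3, 8, 7 and 9 counts in WT. It averaged 0.717 ± 0.443 CPM in GLC and 0.655 ± 0.409 CPM in WT. Hist1h3f averaged 0.412 ± 0.186 CPM in GLC and 0.380 ± 0.283 CPM in WT, and Hist2h3c2 averaged 0.374 ± 0.226 CPM in GLC and 0.283 ± 0.287 CPM in WT. In all 3 the SD within a group exceeded the difference between the group means.

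**Figure D4:**
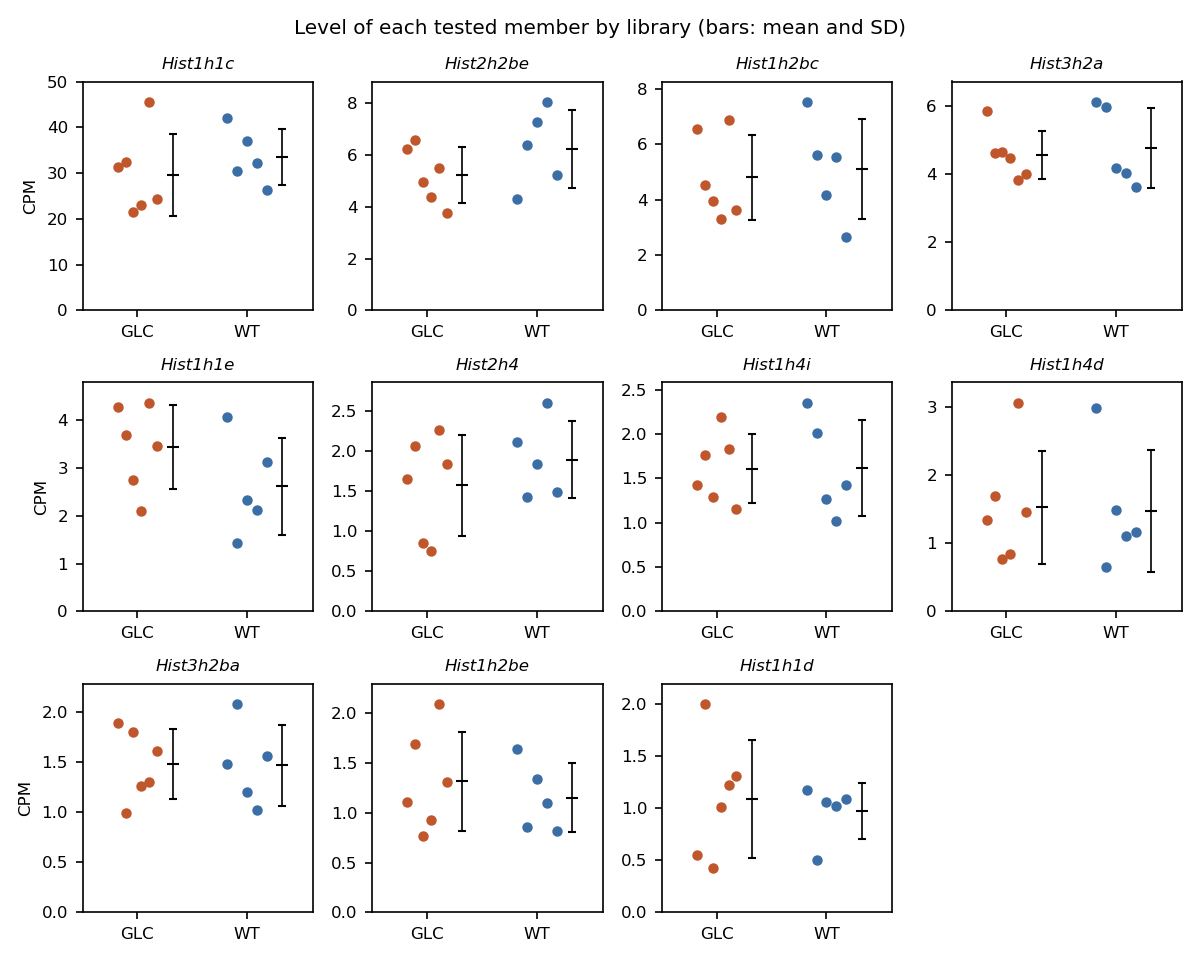
Each panel shows 1 of the 11 tested clustered histone genes, with a point for each library in CPM, GLC left of WT, and the mean and SD of each group beside the points. The groups overlap in all 11 panels.

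**Figure D5:**
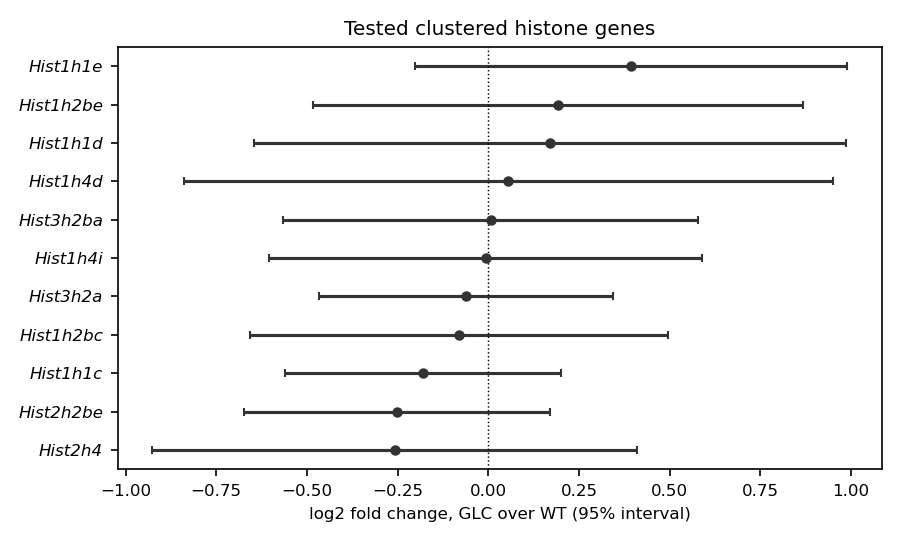
Points give the log2 fold change of GLC over WT for the 11 tested members and bars give 95% intervals from edgeR. All intervals include 0, and the point estimates run from -0.26 for Hist2h4 to 0.39 for Hist1h1e.

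The 95% intervals of the 11 members reached a median of 0.596 on the log2 scale to each side, against 0.251 over all genes tested. The narrowest, for Hist1h1c, reached 0.380, and the widest, for Hist1h4d, 0.894. These widths are for single genes and are not adjusted for the number of genes tested, whereas the calls were. Differences smaller than these widths would not have been called, and larger ones could also have been missed. The variant gene H2afz, outside the clusters, had an unadjusted edgeR p of 0.041 and an adjusted p of 0.9997. The lack of calls therefore does not show that differences are absent. How much of the width comes from depth and how much from spread between libraries was not tested.

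The 56 members that did not pass the filter on low counts summed to 10.9 ± 2.35 CPM in GLC and 10.2 ± 3.01 CPM in WT, with overlapping libraries. With no filter beyond 1 count, 58 members entered the test and 0 were called, against 0.00381% of all genes. At an unadjusted p under 0.05, 2 of the 58 passed, against 5.3% of all genes. These were Hist1h1b (log2 fold change 1.76, SE 0.675) and the H2A gene Hist1h2an. Hist1h2an had 1, 3, 0, 0, 3 and 1 counts in GLC and 0 in every WT library, and shared 85.8% of its stretches with other genes. The lowest adjusted p of any member in that test was 0.701. Hist1h1b and Hist1h2an shared it with other members, Hist2h2be and Hist1h1e among them.

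The histone levels were set beside 2 genes of dividing cells, library by library. Mki67, which encodes the proliferation antigen Ki-67, was at 18.6, 32.9, 23.5, 21.3, 6.01 and 47.0 CPM in the GLC libraries and at 16.3, 4.88, 15.9, 9.62 and 28.2 CPM in WT. GLC 11, with the highest histone sum, was second lowest for Mki67. GLC 12, highest for Mki67, was eighth for the histone sum, of which Hist1h1c makes up much, at 60.9 CPM. For the 56 untested members GLC 12, at 12.9 CPM, was below only WT 1 and GLC 11, and for the H3 genes, at 3.77 CPM, it was below only WT 1. WT 2, lowest for Mki67 at 4.88 CPM, was also lowest for the untested members, at 5.74 CPM, and for H3, at 0.933 CPM. GLC 11 had 13.2 CPM for the untested members, and GLC 78, the library next to GLC 12 for Mki67, was second lowest for H3, at 1.31 CPM. Top2a, the topoisomerase of S phase and mitosis, was also highest in GLC 12, at 42.6 CPM, and second lowest in GLC 11, at 9.84 CPM. Mki67 averaged 24.9 ± 13.9 CPM in GLC and 14.97 ± 8.79 CPM in WT (log2 fold change 0.73, SE 0.44), and its groups overlapped.

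Genes of the same biology outside the clusters were compared as lists, and 0 genes of any list were called in either direction. Of 11 histone variant genes outside the clusters, H2afx among them, 9 were tested, 6 above 0 and 3 below, with a median log2 fold change of 0.06. H2afz, encoding the variant H2A.Z, averaged 150 ± 12.8 CPM in GLC and 129 ± 21.1 CPM in WT. Its 6 GLC libraries all exceeded the WT mean, with a log2 fold change of 0.22 (SE 0.10, edgeR adjusted p = 0.9997), though WT 1 lay above 5 of them. H2afv averaged 40.8 ± 2.79 CPM in GLC and 46.5 ± 6.29 CPM in WT (log2 fold change -0.19, SE 0.09), and H2afj averaged 25.4 ± 5.02 CPM in GLC and 22.8 ± 2.12 CPM in WT. H3f3b, which encodes the variant H3.3, stood at 192 CPM per kb of exon and H2afz at 79.1 CPM per kb, against 20.1 CPM per kb for Hist1h1c. H2afv, H3f3a and H2afy were closer above Hist1h1c, at 26.6, 21.95 and 21.9 CPM per kb. The remaining variants lay below it: H2afj (13.2), H2afx (10.2), H1f0 (5.64), Cenpa (3.10), H1fx (0.0476) and H2afy2 (0.00364 CPM per kb).

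The factors that transcribe and process histone mRNA were read in every library. Of 23 tested, 10 were above 0 and 13 below, with a median log2 fold change of -0.01. Slbp averaged 46.0 ± 4.54 CPM in GLC and 44.7 ± 5.56 CPM in WT (log2 fold change 0.04, SE 0.09). Npat averaged 64.7 ± 5.71 CPM in GLC and 64.9 ± 3.54 CPM in WT (SE of the log2 fold change 0.07). The smallest p values in the list belonged to Mif4gd, an SLBP partner, the cap-binding gene Ncbp1 and the exonuclease gene Eri1. Their log2 fold changes were 0.13, -0.13 and -0.12 (SE 0.08 each).

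Of 22 histone chaperone genes 7 were above 0 and 15 below, with a median of -0.02. Chaf1a, a subunit of the chromatin assembly factor that deposits histones behind the replication fork, averaged 7.13 ± 2.08 CPM in GLC and 4.96 ± 1.81 CPM in WT (log2 fold change 0.53, SE 0.25). Nap1l4 and Anp32e had log2 fold changes of -0.10 and 0.07 (SE 0.06 and 0.05). Of 40 S phase genes 25 were above 0 and 15 below, with a median of 0.05. Their smallest p values belonged to the replication gene Gins2, the thymidine kinase gene Tk1 and the licensing gene Cdc6. Gins2 averaged 4.30 ± 0.651 CPM in GLC and 2.93 ± 0.729 CPM in WT, and the log2 fold changes of the 3 were 0.55, 0.88 and 0.92 (SE 0.20, 0.34 and 0.35). Of 23 genes of G2 and mitosis 23 were above 0, against 49.9% of all genes, with a median of 0.51, led by Birc5, Ube2c and Bub1b at log2 fold changes of 0.91, 1.31 and 0.91 (SE 0.39, 0.62 and 0.43). That median was 0.26 without GLC 12, 0.33 without WT 2 and 0.78 without WT 5, with every gene tested above 0 in all 3. Summed over the list, the level was 68.8 to 234 CPM in GLC and 62.5 to 139 CPM in WT, so the groups overlapped. Genes of a list can vary together, so the number above 0 carries no test. An unadjusted edgeR p under 0.05 was reached by 4.54% of all genes tested. It was reached by 0 of the 22 chaperone genes and 6 of the 40 S phase genes, 5 of these above 0. Among the 23 genes of G2 and mitosis 1 reached it. The natural killer cell markers had a median of 0.67 over the 5 tested of 8, with 3 of the 5 at an unadjusted p under 0.05. Their part in these values was not tested. In each of these lists the adjusted p of every named gene was 0.9997, and the members' own median of -0.01 stands beside these values without a test of the difference.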

How the data were processed

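For each of 11 libraries the authors deposited a raw read count per gene, with no normalization. The submitters' processing notes name STAR, featureCounts and mm10. The sources used here do not give versions, annotation, strand setting, treatment of multiply mapping reads, library kit or read length. Samples were grouped by their titles, and every column matched a sample. Pairs of libraries differed by a chi-square per degree of freedom of at least 9.48, so none was treated as a copy of another.

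GENCODE M21 (GRCm38) matched 55230 of 55471 identifiers, and unmatched genes held 0.00286% of counts. Stem-loops (16 bases) and shared stretches (50 bases, a chosen length, both strands) were searched in its annotated transcripts only. Promoters came from RefSeq (GRCm38.p6).

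Counts were fitted in R 4.3.3 with edgeR 4.0.16 (filterByExpr by group with a minimum count of 10, TMM, glmQLFit and glmQLFTest, two-sided, no covariates, Benjamini-Hochberg over 12404 genes, threshold 0.05). The common biological coefficient of variation was 0.16. CPM values use TMM-scaled totals. Standard errors came from the F statistic and 95% intervals from its degrees of freedom. The fit was tested on simulated data. Sums over members, families and UTR groups carry no test.

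Named genes were the 3 members of highest mean CPM in each family, the 5 members of smallest p in each direction, and in each related list the 3 genes of smallest p, with Slbp, Npat, Mki67 and Top2a. Hist1h1b, Hist1h2an, Hist1h1t and members with 0 counts were named after their values were seen. The members and lists were chosen with earlier results of these data known. Alternatives were other scalings, filters, a robust fit, DESeq2 1.42.0, limma 3.58.1 voom, and each library left out. Leaving out GLC 9 and GLC 78 together and the UTR groups were chosen after seeing the data.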

Additional observations from a re-analysis of the deposited data

Results flagged for a closer look

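Among 34 groups of library values checked for a single library far from the others, 1 stood out, and chance gives about 1 in 20. Hist1h1d was at 0.502 CPM in WT 2, against 1.03 to 1.17 CPM in the other 4 WT libraries. The gap was 0.779 of the WT range. GLC 9 was lower still, at 0.429 CPM, and GLC 6 was at 0.554 CPM.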

How the results depend on the processing

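No paired analysis was possible because GLC and WT share no replicate numbers. Clustered histone genes called numbered 0 under all 20 alternatives, as did genes called in the related lists, and the lowest adjusted p of any named member was 0.676, for Hist1h1e. Over all genes 0 were called by edgeR (563 at an unadjusted p under 0.05), 1 with no filter beyond 1 count (1390 unadjusted) and 2 by DESeq2 (770 unadjusted). Leaving out each library in turn gave 0 genes called, with 320 to 789 at an unadjusted p under 0.05. It also gave a median log2 fold change of the members between -0.0956 and 0.0992, and a log2 ratio of the summed level between -0.189 and 0.0155. The median was 0.136 with no filter. Members over 1 CPM per kb numbered 12 by exon length and 22 by coding length. Of 220 comparisons of a named member with an alternative, 195 kept their direction and 25 reversed. Hist1h4i became 0.0224 under limma-voom, 0.0218 under its quality weights and 0.0258 without GLC 9 and GLC 78. Hist1h2bc became 0.0205 under quality weights and 0.0015 without GLC 9 and GLC 78, and Hist3h2ba became -0.10 under quality weights. With each library left out, the reversing members ranged from -0.241 to 0.0992 (Hist1h2bc), -0.145 to 0.0381 (Hist3h2a), -0.130 to 0.158 (Hist1h4i), -0.249 to 0.468 (Hist1h4d), -0.0956 to 0.163 (Hist3h2ba) and -0.0935 to 0.335 (Hist1h1d). The cause was not tested. Hist1h1c, Hist2h2be, Hist1h1e, Hist2h4 and Hist1h2be kept their sign under every alternative run. The H1 sum without Hist1h1c had a log2 ratio of 0.34. The H2A sum changed sign with unscaled totals (0.03), and the H4 sum without GLC 9 and GLC 78 (0.0085). Members under the filter on low counts entered the test only where it was dropped.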
